A study of Mus musculus with 24 samples.

Results

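Copies of 3 genes sit near one end of mouse chromosome 17: Tagap with Tagap1, Tmem181a with the pseudogenes Tmem181b-ps and Tmem181c-ps, and Dynlt1a, Dynlt1b, Dynlt1c and Dynlt1f. These 9 genes were taken by name, and they were chosen by their RNA differences between genotypes, which earlier results of the same data had shown for some of them. Of the 9, 8 had a line among the 23845 genes of the RNA table and 6 among the 20436 genes of the ribosome-protected fragment (RPF) table. Dynlt1c had a line in neither, and the pseudogenes had none in the RPF table. All 8 passed the filter on low counts in RNA. In RPFs only Tmem181a did.

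The samples were hippocampal slices from male mice, wild-type (WT) or Tsc2+/-, of 28 to 42 days of age, treated with artificial cerebrospinal fluid (vehicle) or with DHPG, which activates group I metabotropic glutamate receptors (5 min, 100 µM). RNA-seq and ribosome profiling, which sequences the mRNA fragments that ribosomes cover, gave 24 libraries in 8 groups of 3: WT vehicle, WT DHPG, Tsc2+/- vehicle and Tsc2+/- DHPG in each assay. Per the study's methods, slices of several mice were pooled for a library and the CA3 region was cut away. The Tsc2+/- mice carry a germline deletion of one allele, obtained by crossing mice with a floxed Tsc2 allele and CMV-Cre mice, with WT littermates as controls. The offspring of that cross were bred on C57BL/6J, and the strain in which the floxed allele was made is not given in the sources used here. Tsc2 lies on the same chromosome (chromosome 17, 24595816 to 24632676 on GRCm38.p6), 16.7 Mb from the nearest of the copies, so the deletion and any other allele inherited with it cannot be told apart in this design.

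RNA libraries held 14801679 to 24067838 counts and RPF libraries 5296006 to 13613673. Nearly all RPF counts of replicates 2 and 3 were even numbers (97.9% to 98.5% of non-zero counts, against 48.2% to 49.0% in replicate 1). As a check of the labels, Tsc2 RNA lay at 128 to 136.6 CPM, which are counts scaled to a common library size, in the 6 Tsc2+/- libraries and at 186 to 214 CPM in the 6 WT libraries. The markers of CA1 pyramidal cells summed to 1625 to 1664 CPM of RNA in WT and 1658 to 1729 CPM in Tsc2+/- libraries, and all 5 of them were detected.

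Tagap encodes a GTPase-activating protein that is best known from activated T cells, and Tagap1 is a second copy of it. Dynlt1, also called Tctex1 after the mouse t-complex in which it was found, is a light chain of cytoplasmic dynein, the motor that carries cargo toward the minus ends of microtubules. Tmem181 encodes a membrane protein whose role is little known. Because such copies arose by duplication, a short read often matches several of them, and a method that keeps only uniquely mapped reads then drops it.

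The sequences below, from RefSeq on GRCm38.p6, show how little separates the copies. They are 30-base stretches of coding sequence, about the length of an RPF, chosen to show a stretch that is the same in every copy or one that holds a difference. Capitals mark the base that differs between copies. In Tagap and Tagap1 the first stretch (coding bases 784 to 813 of Tagap) is identical, at chr17:7932131-7932160 on the plus strand and chr17:6957739-6957768 on the minus strand.
Tagap: gttaagatcttggtggaattcctcatcgac
Tagap1: gttaagatcttggtggaattcctcatcgac

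The next stretch (coding bases 1020 to 1049 of Tagap) differs at 1 base, at chr17:7933004-7933033 on the plus strand in Tagap and chr17:6956874-6956903 on the minus strand in Tagap1.
Tagap: ggatacccggggccaAcgggacacctgtga
Tagap1: ggatacccggggccaCcgggacacctgtga

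For Tmem181 the stretch lies in coding bases 954 to 983 of Tmem181a, at chr17:6298178-6298207 on the plus strand, chr17:6448558-6448587 on the minus strand for Tmem181b-ps and chr17:6620321-6620350 on the minus strand for Tmem181c-ps. Here the first pair cannot be told from each other.
Tmem181a: gcctaagttcttcatCgttggactgctgtg
Tmem181b-ps: gcctaagttcttcatCgttggactgctgtg
Tmem181c-ps: gcctaagttcttcatTgttggactgctgtg

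For Dynlt1 the stretch is coding bases 31 to 60, the same in all 4 copies: chr17:6314926-6314955 on the minus strand (Dynlt1a), chr17:6431883-6431912 on the plus strand (Dynlt1b), chr17:6603490-6603519 on the plus strand (Dynlt1c) and chr17:6653320-6653349 on the minus strand (Dynlt1f).
Dynlt1a: gcatttgttgttgatgaagtgagcagcatt
Dynlt1b: gcatttgttgttgatgaagtgagcagcatt
Dynlt1c: gcatttgttgttgatgaagtgagcagcatt
Dynlt1f: gcatttgttgttgatgaagtgagcagcatt

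Identity over longer sequence differed between the families. The coding sequences of the 4 Dynlt1 copies were 99.7% to 100% identical, and Dynlt1b differed from the other three at 1 base, coding position 21. Tagap and Tagap1 differed at 68 of 1516 aligned coding bases (95.5% identical), and coding bases 782 to 2145 of Tagap differed from Tagap1 at 6 of 1364 bases. The Tmem181 transcripts were 91.8% to 96.4% identical over their aligned bases.

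The part of each copy on which a read can be placed uniquely was measured by looking up every 75-base window of its longest transcript, the RNA read length, in the genome and in the spliced transcripts of the other copies. Windows found only once made up 61% of the Tagap transcript (chromosome 17, 7926000 to 7934897, plus strand, 10 exons) and 46.3% of the Tagap1 transcript (6954965 to 6961565, minus strand, 4 exons). They made up 49% in Tmem181a (6256726 to 6308314, plus strand, 17 exons), 43.4% in Tmem181b-ps (6439002 to 6450994, minus strand) and 50.7% in Tmem181c-ps (6610103 to 6620925, minus strand). For Dynlt1 the share was 38.3% in Dynlt1a (6306344 to 6317520, minus strand), 17.4% in Dynlt1b (6429530 to 6440500, plus strand), 12.4% in Dynlt1f (6646606 to 6655965, minus strand) and 0% in Dynlt1c (6601779 to 6607891, plus strand). Dynlt1c, the copy with no unique window, is also the one with no line in either table. Dynlt1a and Dynlt1b did have a line in the RPF table, at 0 counts in every library. Why Dynlt1c had no line was not tested.

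Footprints are shorter, so less of each copy was unique to them. With 30-base windows of the coding sequence, without the 30 bases at each end, the share was 45.3% in Tagap, 16.1% in Tagap1 and 22.2% in Tmem181a. It was 0% in all 4 Dynlt1 copies, whose windows also matched other chromosomes. Reads with a mismatch were not considered. The ends of Tmem181a and Dynlt1a overlap on opposite strands by 1971 bases of genome. The gene bounds of Tmem181b-ps and Dynlt1b overlap by 1499 bases, but 0 of the Dynlt1b transcript windows looked up lay there. The RNA kit kept strand, but whether counting used it is not given in the sources used here. Reads of overlapping transcripts thus cannot be told apart.

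**Figure D1:**
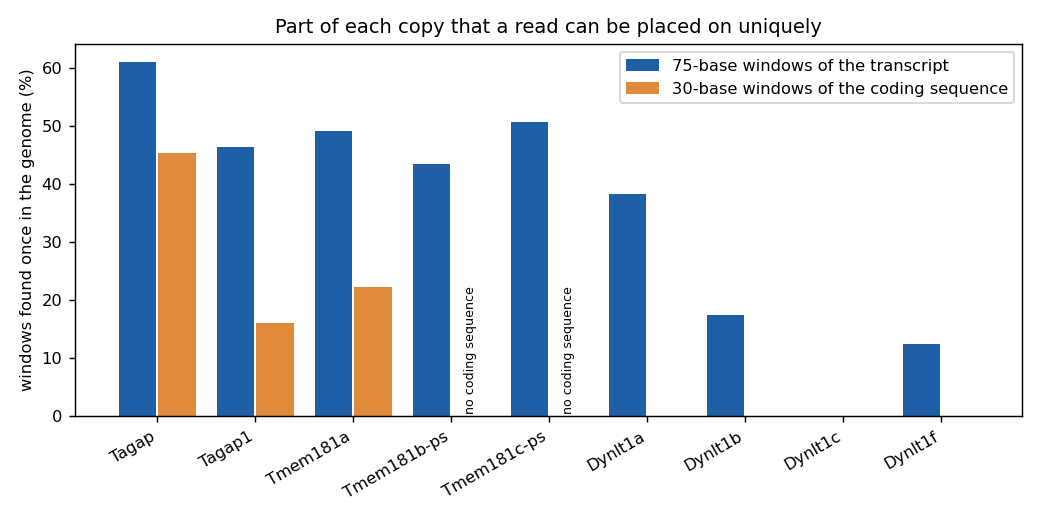
Share of windows found once in the genome, in percent, for the 9 copies. Blue bars are 75-base windows of the transcript and orange bars 30-base windows of the coding sequence; the bars of Dynlt1c are at 0%, and so are the orange bars of every Dynlt1 copy, while the pseudogenes have no coding sequence.

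Between genotypes, the RNA of 1 copy in each family lay higher in every Tsc2+/- library than in any WT library: Tagap, Tmem181b-ps and Dynlt1b. Tagap1 lay lower on average in Tsc2+/-, and its ranges overlapped. Since this contrast chose the genes, its values are a description, and nothing is read from the counts of copies that met a threshold. Of the 8 copies, 4 met an adjusted p under 0.1 for the genotype effect averaged over vehicle and DHPG (edgeR quasi-likelihood test), namely Tagap, Tmem181b-ps and Dynlt1b as higher and Tagap1 as lower, where 0.227% of the 14516 genes tested did, 0.145% higher and 0.0827% lower. In vehicle alone 3 copies met it, against 0.0896% of genes, and in DHPG alone 2, against 0.0482%. Without the replicate number in the model, each of these last counts was 1. Of all 14516 genes, 5 were then called higher and 1 lower in vehicle, and 3 higher and 1 lower in DHPG. Dynlt1b in vehicle met the threshold in 11 of 21 alternatives. The groups of 6 did not overlap for 3 of the 8 copies, against 0.124% of genes that were higher in this way.

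**Figure D2:**
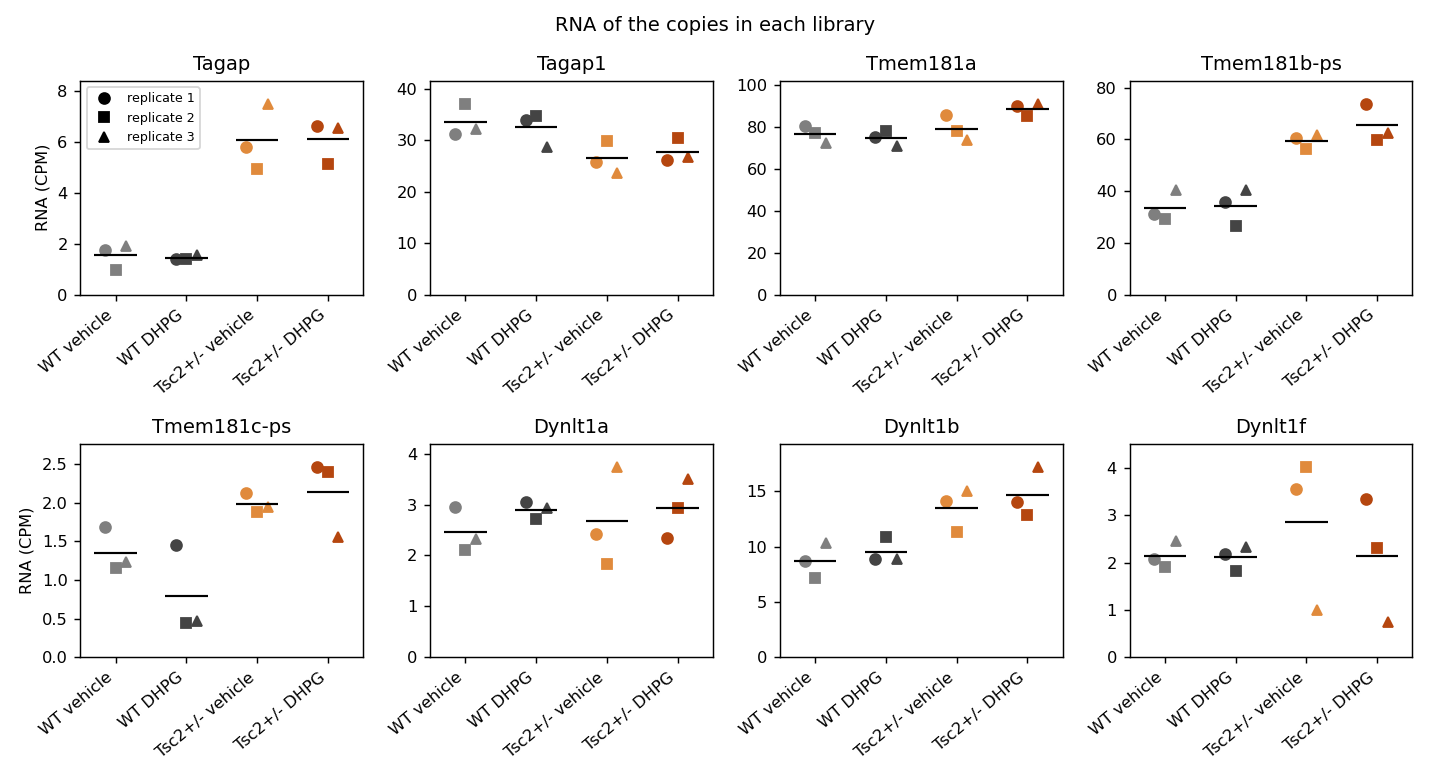
RNA of the 8 copies with a line in the table, in CPM, with 1 point for each library, the shape giving the replicate number and the bar the mean of 3. The Tsc2+/- points of Tagap, Tmem181b-ps and Dynlt1b lie above all WT points, and the triangles of Dynlt1f in Tsc2+/- lie below its other points.

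Tagap RNA was at 1.75, 0.948 and 1.92 CPM in WT vehicle and at 1.39, 1.39 and 1.56 CPM in WT DHPG. In Tsc2+/- it was at 5.79, 4.92 and 7.49 CPM in vehicle and at 6.61, 5.14 and 6.56 CPM in DHPG. The mean was 1.49 CPM ± 0.338 (SD, n = 6) in WT and 6.08 CPM ± 0.982 (n = 6) in Tsc2+/-, a ratio of 4.08, and the fitted log2 fold change was 2.04 (SE 0.161). Counts were low in WT, 21 to 39 per library, and 107 to 166 in Tsc2+/-.

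Tagap1 RNA was at 31.3, 37.1 and 32.2 CPM in WT vehicle and 34.1, 34.8 and 28.7 CPM in WT DHPG. In Tsc2+/- it was at 25.9, 29.9 and 23.7 CPM in vehicle and 26.3, 30.5 and 26.8 CPM in DHPG. The WT replicate 3 library of DHPG lay within the Tsc2+/- range. The log2 fold change was -0.28 (SE 0.0608), with means of 33.0 CPM ± 2.93 in WT and 27.2 CPM ± 2.55 in Tsc2+/- (n = 6 each). Tagap1 no longer met the threshold without any 1 of the replicate numbers, or without WT DHPG replicate 1, Tsc2+/- vehicle replicate 3, Tsc2+/- DHPG replicate 1 or Tsc2+/- DHPG replicate 2, and its log2 fold change stayed between -0.30 and -0.25.

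Per length, the copies of Tagap were far apart. Divided by the number of unique windows, WT RNA stood at 0.814 CPM ± 0.184 per 1000 windows for Tagap and at 31.2 ± 2.77 for Tagap1. In Tsc2+/- these levels were 3.32 ± 0.536 and 25.7 ± 2.41 (n = 6 each). Tagap thus stayed the less abundant copy in both genotypes.

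Tmem181b-ps RNA was at 31.0, 29.0 and 40.5 CPM in WT vehicle and at 35.6, 26.3 and 40.6 CPM in WT DHPG. In Tsc2+/- it was at 60.4, 56.0 and 61.7 CPM in vehicle and at 73.7, 59.9 and 62.6 CPM in DHPG. The highest WT values were those of replicate 3 in both treatments, and the lowest Tsc2+/- value still lay above them. The means were 33.8 CPM ± 6.01 in WT and 62.4 CPM ± 5.96 in Tsc2+/- (n = 6 each), and the log2 fold change was 0.89 (SE 0.0664).

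The other copies of Tmem181 differed less evenly. Tmem181a, the copy with a full reading frame, lay at 70.9 to 80.1 CPM in WT (median 75.9) and at 73.7 to 90.8 CPM in Tsc2+/- (median 85.2), with a log2 fold change of 0.15 (SE 0.0454). The groups overlapped. Tmem181c-ps was scarce, at 0.443 to 1.68 CPM in WT and 1.55 to 2.47 CPM in Tsc2+/-, with a log2 fold change of 1.04 (SE 0.259). Its counts were 8 and 10 in WT DHPG replicates 2 and 3, and 22 to 56 in the other 10 libraries.

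Dynlt1b RNA was at 8.67, 7.13 and 10.3 CPM in WT vehicle and at 8.87, 10.9 and 8.90 CPM in WT DHPG. In Tsc2+/- it was at 14.1, 11.3 and 15.02 CPM in vehicle and at 14.02, 12.8 and 17.2 CPM in DHPG. The groups did not overlap, with 10.9 CPM as the highest WT and 11.3 CPM as the lowest Tsc2+/- value. The means were 9.13 CPM ± 1.33 and 14.1 CPM ± 2.01 (n = 6 each), and the log2 fold change was 0.62 (SE 0.0977).

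Dynlt1a and Dynlt1f overlapped between genotypes. Dynlt1a lay at 2.10 to 3.04 CPM in WT and 1.83 to 3.75 CPM in Tsc2+/- (log2 fold change 0.06, SE 0.184). Dynlt1f lay at 1.83 to 2.46 CPM in WT. In Tsc2+/- it was at 3.56, 4.03 and 0.993 CPM in vehicle and at 3.35, 2.31 and 0.754 CPM in DHPG (log2 fold change 0.08, SE 0.297). The replicate 3 libraries of Tsc2+/- thus held the lowest values of all 12, and the sign of this fold change turned when other libraries were left out (-0.29 to 0.71 over the leave-one-out fits).

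A sum over the copies of a family does not depend on which of these copies a read was assigned to. Reads dropped because they matched several places are missing from it. The Tmem181 and Dynlt1 families also share sequence, such as 534 of the 4871 75-base windows of Dynlt1a with Tmem181c-ps. Tmem181a and Dynlt1a overlap besides, so the sums of these families are not fully separate. For Tagap plus Tagap1 the sum was 34.5 CPM ± 2.69 in WT and 33.3 CPM ± 1.71 in Tsc2+/- (n = 6 each), and the log2 fold change was -0.05 (SE 0.0576). As a difference of Tsc2+/- minus WT means, Tagap was at 4.59 CPM and Tagap1 at -5.87 CPM. The other families did not even out in this way. The Tmem181 sum was 110.4 CPM ± 3.66 in WT and 148 CPM ± 11.3 in Tsc2+/-, with a log2 fold change of 0.42 (SE 0.0390). The Dynlt1 sum, over Dynlt1a, Dynlt1b and Dynlt1f, was 13.9 CPM ± 1.52 in WT and 19.4 CPM ± 1.54 in Tsc2+/-. Its log2 fold change was 0.48 (SE 0.0795). Both of these sums were higher in every Tsc2+/- library than in any WT library. No fit under another setting turned the sign of the averaged genotype difference in these 3 RNA sums.

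**Figure D3:**
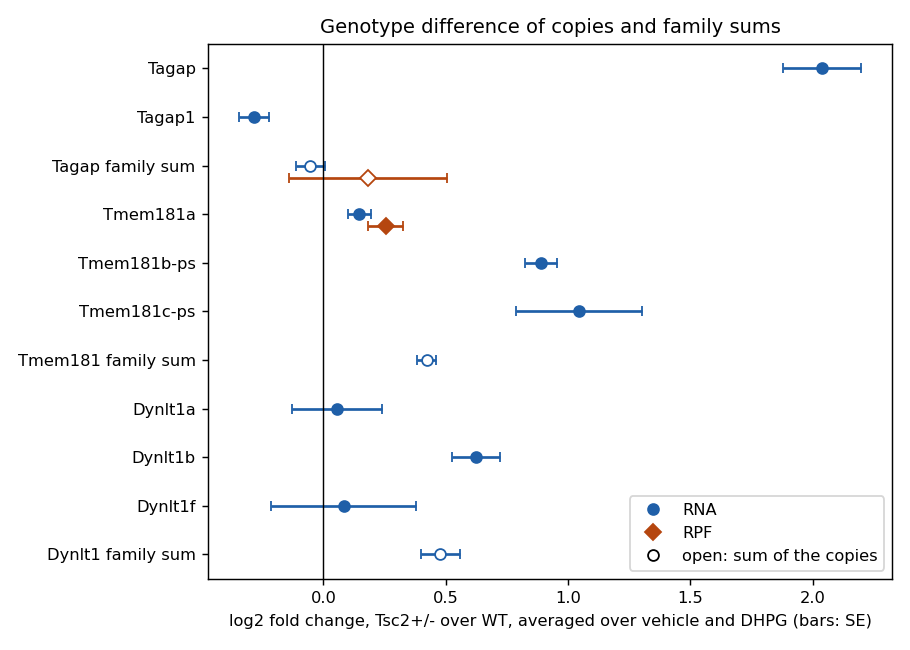
Log2 fold change of Tsc2+/- over WT, averaged over vehicle and DHPG, with SE, for the 8 copies and the sums over each family (open symbols). Blue circles are RNA and brown diamonds RPF; the Tagap sum in RNA is at -0.05 while Tagap alone is at 2.04, and the Tmem181 and Dynlt1 sums are at 0.42 and 0.48.

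The same RNA counts can also be given as the split of each family among its copies within each library. This is another form of the values above and no further support for them. Tagap took 2.49% to 5.63% of the Tagap family's RNA counts in WT libraries (median 4.54%) and 14.1% to 23.99% in Tsc2+/- libraries (median 19.0%). Summed over libraries its share was 4.24% of 3937 counts in WT (exact Clopper-Pearson 95% interval 3.63% to 4.92%) and 18.3% of 4350 in Tsc2+/- (17.2% to 19.5%), where intervals cover counting error only. Tmem181b-ps took 25.1% to 36.2% of its family in WT and 40.4% to 44.9% in Tsc2+/-. Dynlt1b took 62.9% to 70.6% in WT and 65.9% to 80.2% in Tsc2+/-, ranges that overlapped. Dynlt1f took 3.505% and 5.02% of its family in the replicate 3 libraries of Tsc2+/- and 11.8% to 23.4% in the other 10.

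**Figure D4:**
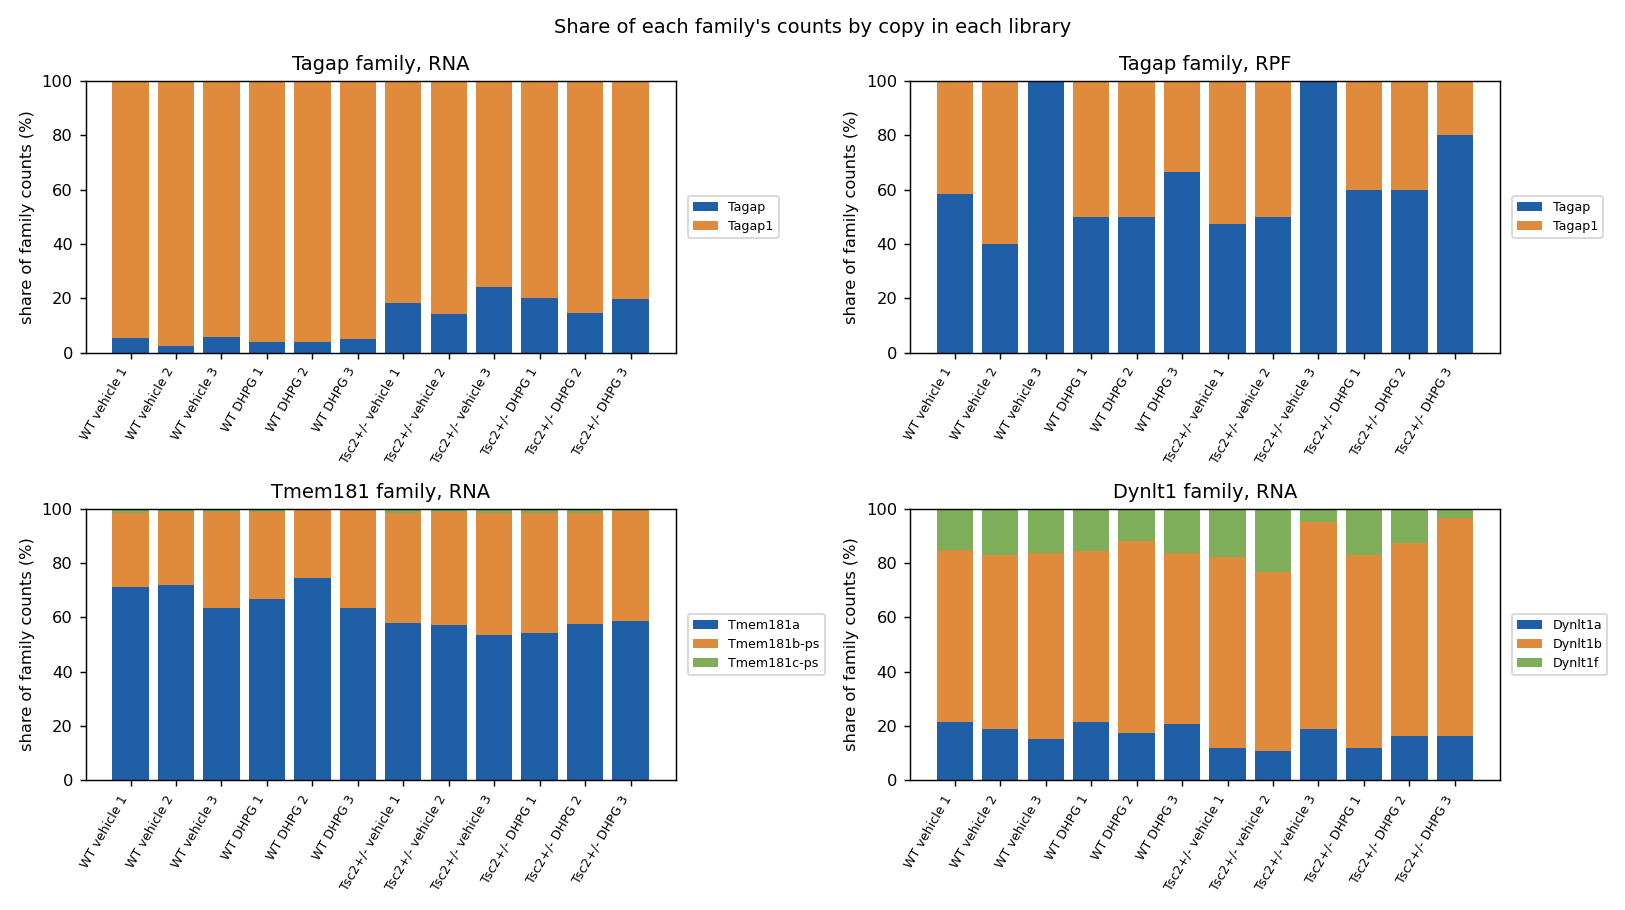
Share of each family's counts, in percent, that fell on each copy in each of the 12 libraries of an assay, as stacked bars. In RNA the Tagap part is at most 5.63% in WT and at least 14.1% in Tsc2+/-; in RPFs, with 147 counts in all, it is 40% or more in every library.

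Footprints showed another balance between the Tagap copies. Tagap RPF counts were 7, 4 and 2 in WT vehicle, 13, 6 and 8 in WT DHPG, 9, 4 and 6 in Tsc2+/- vehicle and 12, 6 and 8 in Tsc2+/- DHPG. The genotypes overlapped, at 0.380 to 1.013 CPM in WT and 0.530 to 1.48 CPM in Tsc2+/-. With the counts of replicates 2 and 3 halved, since nearly all of these were even, the ratio of Tsc2+/- to WT was 1.22 (exact 95% interval 0.719 to 2.06, counting error only) from 33 and 30 counts. Neither Tagap nor Tagap1 had enough RPF counts to be tested across all genes.

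Tagap1 RPF counts were 0 to 13 per library. With the counts of replicates 2 and 3 halved in the same way, the ratio of Tsc2+/- to WT was 0.977 (0.533 to 1.78). Tagap held 57.8% of the 147 RPF counts of the pair as deposited (49.4% to 65.9%), against 11.6% of their RNA counts. After the halving it held 56.2% of 112 RPF counts (46.6% to 65.6%). The copies differ in how much of them can be counted, with 931 unique coding windows in Tagap and 230 in Tagap1. Per 1000 unique coding windows, WT RPFs stood at 0.805 CPM ± 0.279 for Tagap and 2.61 CPM ± 1.42 for Tagap1 (n = 6 each). In Tsc2+/- they stood at 1.04 ± 0.338 and 2.51 ± 1.74. The copies were thus closer in RPFs than in RNA on this scale.

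The ratio of RPF CPM to RNA CPM of Tagap was 0.519 ± 0.171 in WT and 0.160 ± 0.0496 in Tsc2+/- (SD, n = 6 each). It spanned 0.198 to 0.681 in WT and 0.108 to 0.224 in Tsc2+/-, so that the genotypes overlapped in their ranges. For Tagap1 this ratio was 0.0180 ± 0.00942 and 0.0210 ± 0.0152. Translational efficiency (TE, how far RPFs moved beyond RNA) could be fitted for these copies only when the filter on low counts was left out. The fitted genotype change of Tagap in TE was then -1.71 on the log2 scale (SE 0.414, adjusted p = 0.510, edgeR). That of Tagap1 was 0.27 (SE 0.390). Neither met the threshold, and 0 of the 15975 genes in this fit did. The fit used the few RPF counts as deposited, which were nearly all even in part of the libraries. Whether its SE holds with those counts halved was not tested. The ratios and TE values of Tagap hold the RNA difference by which it was listed, and are given as a description.

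Tmem181a was the 1 copy with many footprints. Its RPFs were at 34.0, 38.1 and 38.4 CPM in WT vehicle and at 38.8, 40.8 and 39.0 CPM in WT DHPG. In Tsc2+/- they were at 46.3, 41.1 and 45.7 CPM in vehicle and at 47.5, 40.7 and 51.5 CPM in DHPG. A single Tsc2+/- library, DHPG replicate 2, lay within the WT range, just under its top of 40.8 CPM. The log2 fold change was 0.25 (SE 0.0706) in RPFs and 0.11 (SE 0.0809) in TE, beside 0.15 in RNA. Tmem181a did not meet the threshold in RPFs, where 0.0621% of 12877 genes did, or in TE, where 0% of 12785 genes did. DESeq2 also called it in neither.

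Dynlt1 had next to no footprints in the table. Dynlt1a and Dynlt1b were at 0 in all 12 RPF libraries and Dynlt1f had 2 counts in WT DHPG replicate 2. A count of 0 over all libraries, taken as under 3 counts in the summed depth as deposited, allows up to 0.0308 CPM of assigned reads. With the even counts of replicates 2 and 3 halved, the depth is smaller and this bound higher. Since no 30-base coding window of these copies is unique, a read could hardly have been assigned to them, and these zeros say nothing of how much Dynlt1 was translated.

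DHPG was asked next, which the choice of genes did not rest on. None of the 8 copies tested in RNA was called for DHPG averaged over genotypes, where 0.0207% of 14516 genes were, nor in WT or in Tsc2+/- alone, where 0% were. DESeq2 called 0 in each as well. At an unadjusted p under 0.05 there were 0 copies for the averaged effect, 1 in WT and 1 in Tsc2+/-. Of all 14516 genes, 1087, 936 and 627 had such a p in these comparisons. The averaged log2 fold changes of the 8 copies ran from -0.39 to 0.20, with a median of 0.04 beside -0.0012 over all genes tested.

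Tagap was at -0.02 on the log2 scale with DHPG (SE 0.165, adjusted p = 0.991, edgeR), and was higher with DHPG in 3 of 6 same-numbered pairs. Tmem181b-ps was at 0.08 (SE 0.0662, adjusted p = 0.813) and higher in 5 of 6 pairs, and Dynlt1b at 0.14 (SE 0.0977, adjusted p = 0.772) and higher in 4 of 6. The copy with an unadjusted p under 0.05 in WT was the scarce Tmem181c-ps, at -0.86 (SE 0.398, adjusted p = 0.760). In Tsc2+/- it was Tmem181a, at 0.17 (SE 0.0636, adjusted p = 0.9998).

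The genotype difference of each copy was also compared between treatments, as the interaction of genotype and DHPG. It was called for 0 of 8 copies by edgeR and by DESeq2, as for 0% of all genes. An unadjusted p under 0.05 was found for 1 copy, Tmem181a, and for 503 of all 14516 genes. The genotype log2 fold change of Tmem181a was 0.05 (SE 0.0643) in vehicle and 0.25 (SE 0.0643) in DHPG. Its interaction of 0.20 (SE 0.0909) had an adjusted p of 0.9994. Tagap differed between genotypes by 2.01 (SE 0.226) in vehicle and 2.07 (SE 0.230) in DHPG, and its interaction was 0.07 (SE 0.33, adjusted p = 0.9994).

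In RPFs, Tmem181a had a log2 fold change with DHPG of 0.09 (SE 0.0706, adjusted p = 0.860) and of 0.02 in TE (SE 0.0808, adjusted p = 0.959). Of all genes, 0.0311% were called for DHPG in RPFs and 0.0469% in TE. The sum of Tagap and Tagap1 had a log2 fold change of 0.54 with DHPG in RPFs (SE 0.323, adjusted p = 0.787).

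Genes that lie between and around the copies served as a comparison along the chromosome. Of 41 other genes on chromosome 17 that start before 9 Mb and had a line in the RNA table, 26 were tested. For the averaged genotype effect edgeR called 0 of them, where 0.227% of all genes were called. DESeq2 called 1, where it called 23 of the 14516 genes as higher and 15 as lower. At an unadjusted p under 0.05 there were 2, beside 888 of all 14516 genes. Their median log2 fold change was -0.00095, beside -0.0011 over all genes, and ranged from -0.87 to 0.19. In RPFs 0 of 19 were called by edgeR, where 0.0621% of 12877 genes were, and 0 by DESeq2. An unadjusted p under 0.05 was met by 1, but the count over all genes is not given here, so nothing is read from it.

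The neighbours with the smallest p were all lower in Tsc2+/-. Mpc1, a subunit of the mitochondrial pyruvate carrier (8283787 to 8297667), was at -0.17 (SE 0.0445, adjusted p = 0.148, edgeR), and it was called by DESeq2, without the filter on low counts and without WT vehicle replicate 2. The scarce 1700010I14Rik was at -0.87 (SE 0.41, adjusted p = 0.796). Prr18 was at -0.14 (SE 0.0735), Rnaset2b, a ribonuclease T2 copy that lies beside Tagap1 among the genes tested, at -0.11 (SE 0.0639), and Rsph3b, a radial spoke protein gene, at -0.13 (SE 0.0762), with adjusted p of 0.838 to 0.849. Rsph3a, the tested gene nearest to Tagap and chosen for its place, was at -0.03 (SE 0.109), beside 2.04 for Tagap.

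**Figure D5:**
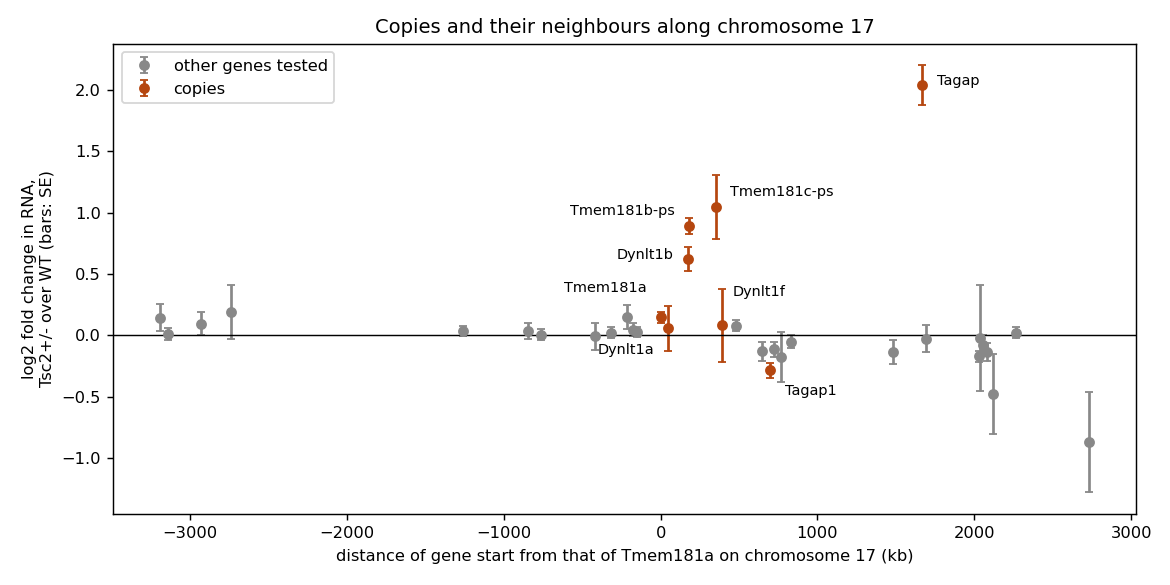
Log2 fold change in RNA of Tsc2+/- over WT, with SE, against the distance of each gene's start from that of Tmem181a in kb, for the 8 copies (brown) and the 26 other genes tested on this stretch of chromosome 17 (grey). Tagap, Tmem181c-ps, Tmem181b-ps and Dynlt1b stand above the grey points, which run from -0.87 to 0.19.

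Other genes of the dynein pathway were read from a list. Of 22 subunits of dynein and dynactin, all tested, 0 were called in RNA or RPFs for the averaged genotype effect by edgeR, with a median log2 fold change of -0.01 in RNA and 0.01 in RPFs. An unadjusted p under 0.05 was found for 1 in each assay, beside 888 of all 14516 genes in RNA. Dynll2, another dynein light chain, had the smallest p in RNA, at -0.08 (SE 0.0336, adjusted p = 0.718). DESeq2 called 0 of the 22 for genotype. With DHPG 0 of the 22 were called by edgeR in the averaged comparison of either assay. Unadjusted p under 0.05 was met by 3 in RNA, beside 1087 of all 14516 genes. In RPFs 6 met it, but the count over all genes is not given here, so nothing is read from them. DESeq2 called 1 of the 22 with DHPG, Dynll2 in RPFs, which was at 0.27 by edgeR (adjusted p = 0.275). The count over all genes under DESeq2 is not given here either.

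The genes whose RNA ran most like that of Tagap over the 12 RNA libraries, after centring each replicate number, were Glo1 (Pearson's r 0.979), Ywhab (0.958) and Tmem181b-ps (0.946). For Tmem181b-ps they were Glo1 (0.950), Tagap (0.946) and Xbp1 (0.931). These correlations are over libraries that fall into the same pair of genotypes, so they are a description of that split. Glo1, which encodes glyoxalase 1, also lies on chromosome 17 (30592861 to 30612659) and had a log2 fold change of 0.56 (SE 0.0439) between genotypes. Ywhab (chromosome 2) was at 0.07 (SE 0.0319) and Xbp1 (chromosome 11) at 0.06 (SE 0.0422).

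Markers of cells that could carry Tagap RNA were counted beside it. Of 11 T cell markers 10 had a line in the RNA table, Cd2 and Cd8b1 were at 0 in every library, and Cd3e and Cd8a had at most 3 counts in any. Their summed RNA was 1.72 to 3.08 CPM in WT and 1.97 to 3.61 CPM in Tsc2+/- libraries. The 10 microglia markers summed to 329.6 to 420.2 CPM in WT and 351 to 392 CPM in Tsc2+/-. The other lists ran in both directions, and their ranges overlapped between genotypes. The 5 neuron markers lay higher in Tsc2+/-, at 10490 to 11150 CPM beside 9473 to 10660 CPM in WT, with 0 called. For the CA1, CA3, astrocyte and oligodendrocyte markers 0 were called as well. Blood and dentate gyrus markers lay lower in Tsc2+/-. The 4 blood markers with a line summed to 16.3 to 35.2 CPM in WT and 2.59 to 17.7 CPM in Tsc2+/-, with 1 of 4 called lower. The 5 dentate gyrus markers summed to 57.3 to 77.0 CPM in WT and 48.8 to 61.0 CPM in Tsc2+/-, with 1 of 5 called lower. Of the 14516 genes tested in RNA, 0.0827% were called lower. The part of these differences in the values above was not tested. In slice tissue of mixed cell types, fewer cells of a type and less RNA in each of them cannot be told apart. The study's methods also describe CA1 being dissected out of the slices, and whether the tissue taken differed between libraries was not tested.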

How the data were processed

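RNA-seq and ribosome profiling were carried out on slices from 4 groups of 3 libraries each, which were assigned from the labels, and 0 columns were left without a sample. The authors deposited expected counts from RSEM, 1 per gene and rounded to whole numbers. Before that the authors trimmed reads with Cutadapt and Trimmomatic, discarded rRNA and tRNA reads with bowtie2, mapped to mm10 with TopHat2, dropped reads that mapped to several places and collapsed duplicates by molecular identifier. RNA was counted over RefSeq transcripts and RPFs over coding sequences without 30 bases at each end. The study's ComBat and DESeq2 steps were run only as alternatives.

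Genes were kept with filterByExpr (minimum count 10) and scaled by TMM, and CPM are given on that scale. Tests used the two-sided quasi-likelihood F test of edgeR 4.0.16 in R 4.3.3 over the 12 libraries of RNA or of RPFs together, modelling group plus replicate number. Benjamini-Hochberg adjustment ran over every gene tested, and an adjusted p under 0.1 was called. The SE was taken from the F statistic. For TE, an assay by group interaction was fitted to the 24 libraries. Sums over copies replaced their members in the table. Copy positions and windows came from RefSeq on GRCm38.p6, the build mm10, with exact matches on both strands.

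The copies, lists and tests were chosen with earlier results of these data known. Named besides the copies were the 5 neighbours with the smallest adjusted p, genes called in the dynein list or else the 1 with the smallest p, and the 3 genes with the highest r with Tagap and Tmem181b-ps. Alternatives were DESeq2 1.42.0, ComBat (sva 3.50.0) before it, other scaling, no filter, a stricter threshold, no replicate number, only the groups compared, halved RPF counts, and fits that left out 1 library or replicate number. A TE model with the lysate as a block was added after the data were seen. The procedures were tested on simulated data. A second gene list is not reported here.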

Additional observations from a re-analysis of the deposited data

How the results depend on the processing

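The replicate number was kept in the model because the study had corrected for batch. Deviations of same-numbered libraries from their group means correlated by 0.0228 to 0.143 in RNA and 0.0330 to 0.263 in RPFs over 18 pairs per assay, not over 0.1 in every pair, so the samples were taken to share only a number, and counts over same-numbered libraries describe direction only. Without the replicate block the copies called for the averaged genotype effect in RNA went from 4 to 3, with Tagap1 lost at a log2 fold change of -0.28. Those in vehicle went from 3 to 1 and those in DHPG from 2 to 1. Of the 14516 genes tested without the block, 10 were called higher and 6 lower for the averaged effect. In vehicle 5 were higher and 1 lower, and in DHPG 3 were higher and 1 lower. The block changed no other call among the averaged effects of copies and sums. In vehicle alone the Dynlt1 sum had an adjusted p (edgeR) of 0.0579 with the block and 0.247 without it. Without the filter on low counts 4 copies were called for genotype in DHPG, where 9 of 18333 genes were called higher and 8 lower. The neighbours called for genotype in RNA were 1 under DESeq2, where 23 of 14516 genes were called higher and 15 lower. Without the filter there was 1, where 33 of 18333 genes were called higher and 30 lower. Over the fits that left out libraries there were 0 to 1, with 1 only without WT vehicle replicate 2. The neighbour called was Mpc1.

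The Tmem181 and Dynlt1 sums in RNA and Tagap, Tmem181b-ps and Dynlt1b kept their sign and side of the threshold for the averaged genotype effect in all 20 alternatives, which is no support for them, since this contrast chose the genes. Tmem181c-ps passed the threshold in 5 of 20. Among the averaged effects, signs turned only for differences that were not called. With DHPG, the Tagap sum in RNA was at -0.0015 under ComBat then DESeq2 and ran from -0.031 to 0.035 when libraries were left out. Over the same fits the DHPG effect in RNA ran from -0.16 to 0.12 for Tagap, -0.021 to 0.038 for Tagap1, -0.0005 to 0.14 for Tmem181b-ps and -0.47 to 0.047 for Dynlt1f, and that of Tmem181a in TE from -0.023 to 0.050. The genotype effect in RNA ran from -0.18 to 0.24 for Dynlt1a and from -0.29 to 0.71 for Dynlt1f. Halving the even RPF counts moved the Tagap share of its pair from 57.8% to 56.2%. Depth limits the RPFs of Tagap and Tagap1 to 147 counts in all, or 112 after the halving.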
